A study of Mus musculus with 10 samples.

Results

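The genes described here were the potassium channel genes of the mouse, taken as all array probes whose gene symbol begins with Kcn. The array carried 116 such probes for 94 gene symbols, out of 26423 probes and 19942 symbols in all, and 13 of the 94 symbols had several probes. Potassium channels let potassium ions leave or enter the cell along their gradient, and in heart muscle they repolarize the membrane after each action potential and hold the resting potential between beats. Voltage-gated channels of the Kv families carry the transient outward and delayed rectifier currents, inward rectifiers set the resting potential, K2P channels with tandem pore domains leak potassium at all voltages, and smaller beta subunits change the gating or traffic of the pore-forming subunits. In rodents the transient outward current, carried by Kcnd2 and Kcnd3 together with the accessory subunit encoded by Kcnip2, dominates early repolarization, and its decline is a known feature of hypertrophied heart muscle.

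Male C57BL/6J mice, 8 weeks old, underwent transverse aortic banding (TAB), which narrows the aorta and puts the left ventricle under pressure overload, or a sham operation. Left ventricles were collected 3, 5, 7, 14 and 28 days later, which gave 10 samples, 5 per operation, each alone on its day. For the TAB day 14 sample 1 label reads 15 days, and it was used as day 14. Neither the labels nor the methods give the number of mice behind a sample, so the p-values measure only the spread between these samples.

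All values below are log2 of the array intensity after normalization between the 10 arrays, unless a linear fold is named. A probe was called found on an array when its spot did not carry the negative flag, which was read, without a statement from the authors, as a spot that the scanner software did not find. Between 40.2% and 47.3% of all spots of an array were not found, median raw intensities lay between 34 and 57, and 19976 probes passed the filter on low intensity, of which 12654 were found on all 10 arrays. All 11 cardiomyocyte marker probes were found on every array. Their summed linear intensity was 303619 to 318867 in TAB and 325798 to 350118 in sham, with 1 probe lower and none higher in TAB. The lower one was a dim Mb probe with a log2 ratio of −0.68, while the brighter Mb probe had −0.04 and was not called. The Myl2 spot was saturated on 9 arrays, and without it the sum was 238123 to 253367 in TAB and 260298 to 284618 in sham. Of the fibroblast markers, 4 of 7 tested probes were higher and none lower, with sums of 58218 to 80058 in TAB and 46597 to 51165 in sham, although Col1a1 itself was found on no array. Of the leukocyte markers, 7 of 9 tested probes were higher and 1, Cd3e, lower, with sums of 2785 to 7138 in TAB and 1783 to 2307 in sham. No endothelial probe of 10 passed the test. For smooth muscle and pericytes it was 2 of 6, all higher, with sums of 2331 to 2894 in TAB and 2022 to 2919 in sham, and Pdgfrb and Cnn1 were found on no array. For neurons and glia it was 1 of 11, Tubb3, with sums of 633 to 732 in TAB and 612 to 771 in sham. Of the tested proliferation probes 2 of 5 were higher, with sums of 357 to 1191 in TAB and 143 to 422 in sham, and Cdk1 was found on no array. In whole tissue, fewer cells of a type and less RNA per cell cannot be told apart.

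The upstream sequences of 4 genes on which the results turn are shown first, because Kcnd2 and Kcnip2 encode partners of one current and were both lower in TAB, whereas Kcnj15 and Kcne4 were the higher probes with the lowest adjusted p. Each run is the 250 bases before the RefSeq transcription start on the transcript strand of GRCm38.p6, written 5′ to 3′, with capitals for a GC box (GGGCGG, or CCGCCC on the other strand), a TATA box (TATAAA or TTTATA) or an E-box (CACGTG, the same on both strands). Kcnd2 lies at chr6:21215096-21215345 on the plus strand, Kcnip2 at chr19:45816064-45816313 on the minus strand, Kcnj15 at chr16:95257308-95257557 on the plus strand and Kcne4 at chr1:78816661-78816910 on the plus strand.
Kcnd2: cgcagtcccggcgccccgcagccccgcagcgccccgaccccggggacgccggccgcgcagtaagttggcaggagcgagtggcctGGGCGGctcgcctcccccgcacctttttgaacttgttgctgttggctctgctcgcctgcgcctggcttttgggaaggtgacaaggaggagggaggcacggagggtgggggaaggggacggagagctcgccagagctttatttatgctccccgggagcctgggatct
Kcnip2: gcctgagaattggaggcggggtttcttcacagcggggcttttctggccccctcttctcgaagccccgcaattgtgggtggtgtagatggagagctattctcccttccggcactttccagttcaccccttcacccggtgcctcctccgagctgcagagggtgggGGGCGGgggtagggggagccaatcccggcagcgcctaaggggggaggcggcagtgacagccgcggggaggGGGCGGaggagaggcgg
Kcnj15: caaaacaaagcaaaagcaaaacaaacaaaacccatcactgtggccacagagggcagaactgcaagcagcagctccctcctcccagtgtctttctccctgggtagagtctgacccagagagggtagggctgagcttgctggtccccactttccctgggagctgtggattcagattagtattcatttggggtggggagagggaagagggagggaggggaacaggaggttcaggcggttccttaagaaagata
Kcne4: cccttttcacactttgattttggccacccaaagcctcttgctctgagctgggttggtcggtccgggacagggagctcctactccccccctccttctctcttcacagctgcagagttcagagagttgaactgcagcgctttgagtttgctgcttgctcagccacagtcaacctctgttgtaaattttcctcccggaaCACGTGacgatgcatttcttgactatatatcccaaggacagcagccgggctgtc

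The Kcnd2 and Kcnip2 windows held 68.8% and 66.8% G or C, with 1 GC box in Kcnd2 and 2 in Kcnip2. The Kcnj15 and Kcne4 windows held 53.2% each, with none of the motifs in Kcnj15 and 1 E-box in Kcne4. Among all 32851 RefSeq mouse promoters in the table, 32.7% held a GC box, 12.4% a TATA box and 6.02% an E-box in the same 250 bases. A promoter was listed for 69 of the 94 Kcn genes, and 43.6% of their 94 promoters held a GC box, 3.19% a TATA box and 6.38% an E-box. The 11 listed promoters of 10 genes lower in TAB held a GC box in 63.6% and an E-box in 18.2%, and the 11 promoters of 7 genes higher in TAB held them in 27.3% and 18.2%, with a TATA box in none of either set. These letters are a description of the windows and not of binding.

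The first question was which potassium channels the left ventricle expressed at a measurable level. A probe found on all 5 arrays of TAB or of sham was taken as measured, which held for 45 probes of 45 symbols, 32 of them found on all 10 arrays. Another 20 probes were found on fewer arrays and 51 on none, and 33 symbols had only probes found on no array. The low-intensity filter removed 35 of the 51, so that 81 Kcn probes of 72 symbols were tested. The measured probes were spread over nearly every family, as the plot of detection by channel family shows. Of the Kv1 to Kv4 pore-forming subunits 10 of 21 probes were measured, of the inward rectifiers 9 of 20, of the K2P channels 7 of 13, of the EAG and ERG family 4 of 10 and of the calcium- and sodium-activated channels 4 of 12. Of 11 probes for silent Kv subunits, which form no channel alone but modify Kv channels, 2 were measured. Of 11 KCNQ probes it was 2, and 6 were found on no array. Kcna4, the pore of the slow transient outward current, and Kcne1, the beta subunit of the slow delayed rectifier, were found on no array, like Kcnk5 and Kcnmb1. Kcnq1ot1, a noncoding RNA transcribed from within the Kcnq1 gene, was removed by the filter, and Kcnrg, a regulator that is not a channel subunit, was found on no array.

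**Figure D1:**
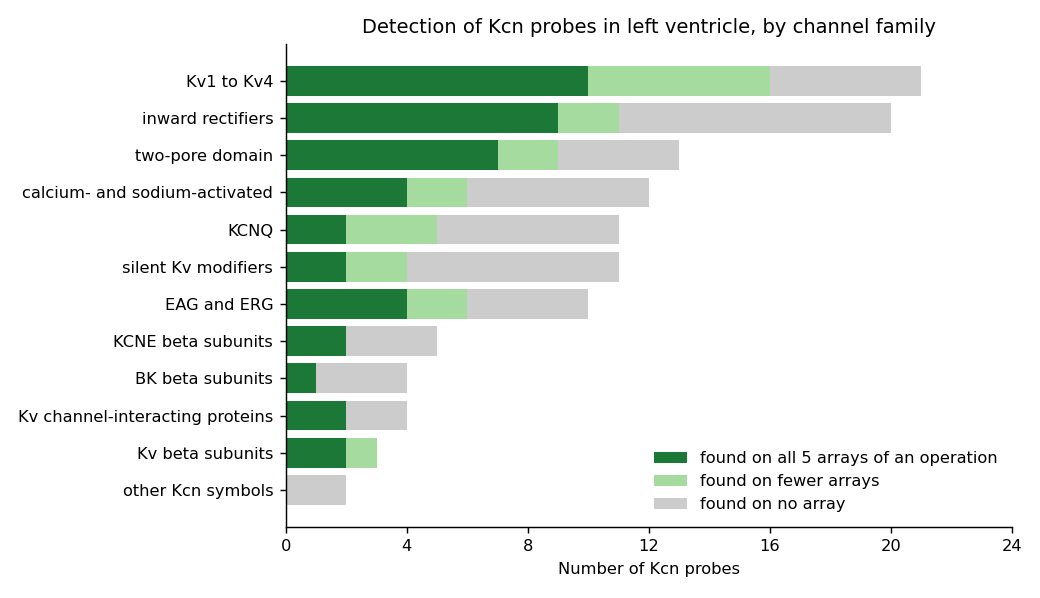
Number of Kcn probes in each channel family (horizontal axis, probes) by detection on the 10 arrays: found on all 5 arrays of TAB or sham, on fewer arrays, or on none. The families of Kv1 to Kv4 subunits and inward rectifiers held the most measured probes, 10 and 9, and neither probe of the other Kcn symbols was found on any array.

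The second question was which channels differed between TAB and sham over the 5 days. Each TAB sample was set against the sham sample of its day, the days served as replicates, and p-values were adjusted over all 19976 probes. Of the 81 tested Kcn probes, 15 were lower in TAB (18.5%, against 6.73% of all probes) and 8 higher (9.88%, against 7.47%), at an adjusted p under 0.05 from limma. The split of all probes depended on the scaling, with 1344 lower and 1492 higher here and 884 lower and 1747 higher after median scaling alone. For the Kcn probes median scaling left 13 lower and 8 higher, with Kcnh2 and Kcnj11 lost. With no filter on low values 2 lower (Kcnk18 and Kcnv2) and 3 higher (Kcne4, Kcnj15 and Kcnk2) were called, 5 of the 23, and the share of all probes called was 1.40% instead of 14.2%. The 15 lower probes had negative ratios on all 5 days and the 8 higher ones positive ratios on all 5 days. Without overlap, all TAB samples lay below all sham samples for 11 Kcn probes (13.6%, against 7.59% of all probes) and above them for 8 (9.88%, against 8.78%). The median log2 ratio was −0.26 over the Kcn probes and −0.05 over all probes. The cardiomyocyte marker sum given above was also lower in every TAB sample than in any sham sample, with Myl2 and without it, and its part in the lower Kcn probes was not tested.

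Probes found on all 10 arrays do not owe their place to a high level in TAB or in sham alone. Of the 32 such Kcn probes 13 were lower (40.6%, against 8.40% of all probes found on all 10 arrays) and 2, Kcne4 and Kcnk2, were higher (6.25%, against 8.63%). With only these probes normalized and tested, 15 of the 32 were lower, now with Kcnh7 and Kcnj6, against 18.3% of all such probes. Their median log2 ratio was −0.38, against −0.04 over all such probes, and 28 of the 32 ratios were negative. Of all 45 measured Kcn probes 15 were lower (33.3%, against 8.44% of all such probes) and 6 higher (13.3%, against 9.29%), which is given as a description because a probe low in 1 operation enters this set only through the other. The other 13 measured probes were found on every array of 1 operation and on fewer of the other. They held 2 of the lower probes, Kcnn2 and Kcnk18, and 4 of the higher ones, Kcnj15, Kcnn4, Kcnk13 and Kcnt2. The remaining higher probes were Kcnj14, found on 4 TAB arrays and no sham array, and Kcne3, found on no array. With 50 added to every intensity before the log2 step, 7 of the 23 ratios moved by over 1.5 times and 0 of these 7 belonged to a probe found on all 10 arrays. They were those of Kcne3, Kcnj14, Kcnj15, Kcnk13, Kcnk18, Kcnn2 and Kcnn4, and all but that of Kcne3 still passed the test.

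**Figure D2:**
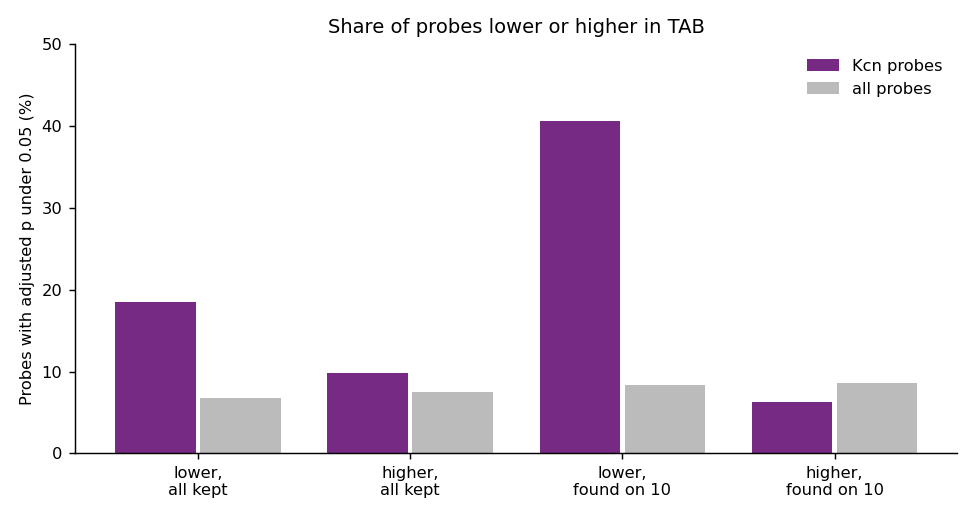
Share of probes (vertical axis, percent) that were lower or higher in TAB at an adjusted p under 0.05 from limma, for the Kcn probes and for all probes, among all probes kept and among those found on all 10 arrays. The share lower in TAB was 18.5% of the Kcn probes kept and 40.6% of those found on all 10 arrays, against 6.73% and 8.40% of all probes.

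With 1 sample per operation and day, the number of calls rested on each of the first 4 days. Without day 3, 0 of 81 Kcn probes were called, and without day 5, 7 or 14 it was 1, 1 and 3, all of them among the 23. Without day 28, 22 were called, of which 18 were shared with the 23. Kcnd3, Kcne2, Kcne3, Kcnh2 and Kcnt2 were then lost, and Kcna10, Kcnk1, Kcnk9 and the Kcnj11 probe found on no array were called in addition. Over all probes the share called fell in the same settings from 14.2% to 0.0651%, 0.175%, 0.115%, 0.921% and 13.9%. Each of the 23 called Kcn probes had ratios of 1 sign on all 5 days, so leaving out a day could not change its direction. Its adjusted p did not pass 0.132 in any of these fits. Kcnj15 remained called without day 5, 7 or 14, and without day 3 the lowest adjusted p among the 23 was 0.0515.

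**Figure D3:**
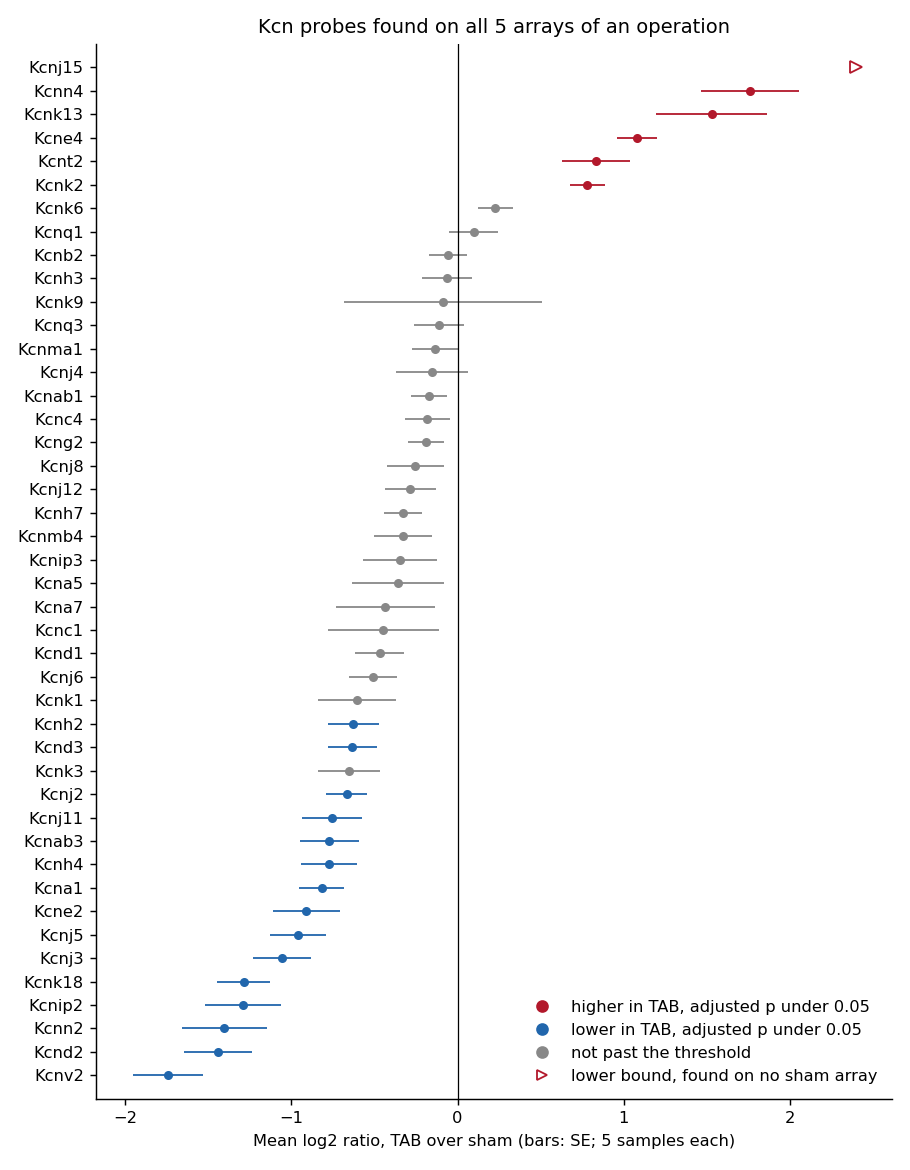
Mean log2 ratio of TAB over sham (horizontal axis) for 44 of the 45 measured Kcn probes, 1 per row, as points with SE bars over 5 samples of each operation; colours mark probes lower or higher at an adjusted p under 0.05 from limma. The open triangle marks Kcnj15 at its bound as described in the text, since it was found on no sham array. Kcnv2 lay lowest at −1.74, and most grey probes lay left of 0.

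All measured subunits listed for the transient outward current were lower in TAB, 3 of 3, with a median log2 ratio of −1.29. All 3 were found on all 10 arrays, where 8.40% of all probes were lower. The list was chosen with earlier results of these data known. Kcnd2 encodes Kv4.2, a pore-forming subunit of the fast transient outward current. Its log2 intensities on days 3, 5, 7, 14 and 28 were 5.85, 5.33, 6.41, 6.04 and 6.54 in TAB and 6.68, 7.54, 8.00, 7.24 and 7.90 in sham. The highest TAB sample, of day 28, lay below the lowest sham sample, of day 3, so the groups did not overlap. The mean difference in log2 was −1.44 (SE 0.21, adjusted p = 0.0199 from limma), which is 2.72-fold lower in TAB. Kcnip2 encodes KChIP2, the calcium-binding subunit that brings Kv4 channels to the membrane. On the same days it stood at 7.88, 7.87, 8.21, 8.26 and 8.80 in TAB and at 9.68, 9.83, 9.36, 9.26 and 9.34 in sham, again without overlap. The difference was −1.29 (SE 0.23, adjusted p = 0.0271 from limma) or 2.45-fold, largest on day 5 at −1.96 and smallest on day 28 at −0.54. Kcnd3, which encodes Kv4.3, ranged from 5.37 to 6.00 in TAB and from 5.90 to 6.59 in sham, so that the day 28 TAB sample lay above the day 5 sham sample. The difference was −0.63 (SE 0.15, adjusted p = 0.0427 from limma). A second Kcnd3 probe was found on no array. Kcnd1, another Kv4 gene outside the list of cardiac currents, had a log2 ratio of −0.47, adjusted p = 0.0812 from limma, and Kcnip3 one of −0.34, adjusted p = 0.329 from limma.

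Of the 6 measured genes of the ultrarapid and sustained delayed rectifiers, only Kcnv2 passed the test. Kcnv2 encodes a silent subunit that joins other Kv channels and shifts their voltage range. Its log2 intensities were 6.57, 5.89, 6.81, 7.19 and 7.15 in TAB and 8.20, 8.40, 8.77, 8.31 and 8.63 in sham on the 5 days in order. Every TAB sample lay more than 1 log2 unit below the sham sample of its day, and the mean difference of −1.74 (SE 0.21, adjusted p = 0.0163 from limma), or 3.35-fold, was the most negative among the called Kcn probes. Kcnb2, a Kv pore subunit outside that list, had a log2 ratio of −0.06, adjusted p = 0.76 from limma. Kcna5, the pore of the ultrarapid current, varied widely within each operation, from 5.07 to 6.81 in TAB and from 5.69 to 7.23 in sham. Its log2 ratio was −0.36, adjusted p = 0.41 from limma, and a second Kcna5 probe, found on 4 arrays, gave −0.50. Kcna7, Kcnc1 and Kcnc4 had log2 ratios of −0.43, −0.45 and −0.18 and did not pass. Kcna1, a Kv1 subunit best known from neurons, was outside the list of cardiac currents and was lower, at 5.75, 5.05, 5.43, 5.88 and 5.72 in TAB and 6.59, 6.34, 6.10, 6.54 and 6.35 in sham. Its groups did not overlap, and the difference was −0.82 (SE 0.14, adjusted p = 0.0247 from limma).

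Of the 3 measured genes of the rapid and slow delayed rectifiers, Kcnh2 and Kcne2 were lower. Kcnh2 encodes the ERG channel, the pore of the rapid current, and stood at 6.96, 7.00, 7.55, 7.12 and 7.90 in TAB and 7.18, 8.16, 8.19, 7.63 and 8.51 in sham. The groups overlapped, and the levels of both operations varied with the day, but TAB was below sham on every day, with a mean difference of −0.63 (SE 0.15, adjusted p = 0.0464 from limma). This call was lost without the day pairing, with an adjusted p of 0.134 from limma, after median scaling alone (0.0693), after normalization within each operation (0.0589) and with no filter on low values (0.0944). Kcne2, a beta subunit of several channels including ERG, ranged from 6.17 to 6.83 in TAB and from 6.87 to 7.47 in sham, without overlap, and differed by −0.91 (SE 0.20, adjusted p = 0.0383 from limma). On day 14 its samples nearly met, at 6.83 in TAB and 6.87 in sham. Kcnq1, the pore of the slow delayed rectifier, ranged from 8.51 to 9.44 in TAB and every sham sample lay within that range, with a log2 ratio of 0.10, adjusted p = 0.688 from limma. Kcnh4, an EAG-like channel known mainly from brain, was lower, with a difference of −0.78 (SE 0.17, adjusted p = 0.0371 from limma), with 6.52 to 7.57 in TAB and 7.72 to 8.05 in sham and no overlap. The related Kcnh3 and Kcnh7 had log2 ratios of −0.06 and −0.33 and did not pass.

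Of the classical inward rectifiers Kcnj2 was lower. Kcnj2 encodes Kir2.1, the main pore of the current that holds the ventricular resting potential. It stood at 9.85, 9.64, 9.59, 9.71 and 9.89 in TAB and at 10.47, 10.32, 10.45, 10.57 and 10.21 in sham, and the samples of each operation lay within a narrow range with a gap between them. The difference was −0.67 (SE 0.12, adjusted p = 0.0281 from limma), or 1.59-fold. Kcnj12 and Kcnj4, which encode the related Kir2.2 and Kir2.3, had log2 ratios of −0.28, adjusted p = 0.242 from limma, and −0.15, adjusted p = 0.669 from limma. The Kcnj4 sham samples ranged from 8.44 on day 28 to 9.95 on day 7, and the TAB samples from 8.78 to 9.23. Its ratio was negative on days 3, 5 and 7 and positive on days 14 and 28. Kcnj14, which encodes Kir2.4, was among the higher probes but was found on no sham array. It stood at 5.71, 5.11, 4.11, 4.85 and 4.25 in TAB, with an adjusted p of 0.0296 from limma. Under the bound described next it was 3.64-fold higher there than in sham. The bound sets each sham array at the higher of the probe's own signal and the lowest signal among found spots. Spots not found can be brighter than the lowest found spot, so the bound is no strict minimum. With 50 added before log2, the Kcnj14 ratio was 0.47 in log2.

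Both subunits of the acetylcholine-activated channel, which slows the heart under vagal tone and is richest in atria and nodes, were lower. Kcnj3 stood at 6.63, 6.03, 5.82, 5.59 and 5.98 in TAB and 7.07, 6.89, 7.26, 6.99 and 7.13 in sham. Kcnj5 stood at 8.37, 8.68, 9.11, 8.67 and 8.92 in TAB and 9.79, 9.67, 9.55, 9.90 and 9.65 in sham. Neither gene's groups overlapped, and the mean differences were −1.06 (SE 0.18, adjusted p = 0.0252 from limma) and −0.96 (SE 0.17, adjusted p = 0.0265 from limma), which is 2.08-fold and 1.95-fold. Of the 4 atrial marker genes, Nppa, which the stressed ventricle also makes, was higher by 1.81 (adjusted p = 0.0143 from limma), and none was lower at the threshold. Myl7, Sln and Myl4 had log2 ratios of −0.81, −0.90 and −0.40, with adjusted p of 0.121, 0.164 and 0.343 from limma, and all TAB samples of Myl7 lay below all sham samples. The summed linear intensity of the 4 markers was 31897 to 40247 in TAB and 11184 to 26092 in sham. Nppa made up 85.2% to 93.2% of it in TAB and 52.2% to 66.3% in sham, and the sum of the other 3 was 2556 to 4760 in TAB and 4390 to 9973 in sham. The part of atrial tissue in the Kcnj3 and Kcnj5 differences was not tested. Kcnj6, a neuronal relative with 4 probes, was measured by 1 of them, at −0.51, adjusted p = 0.063 from limma, while another of its probes, found on 4 arrays of each operation, gave −0.03, adjusted p = 0.873 from limma.

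The ATP-sensitive channel couples the membrane to the energy state of the cell, and its ventricular pore is encoded by Kcnj11. Kcnj11 stood at 9.83, 9.60, 9.73, 10.06 and 10.28 in TAB and at 10.41, 11.04, 10.64, 10.58 and 10.62 in sham. The groups did not overlap and differed by −0.76 (SE 0.18, adjusted p = 0.0443 from limma), a call lost after median scaling alone, after normalization within each operation and with no filter on low values (adjusted p = 0.091 from limma). A second Kcnj11 probe was found on no array. Abcc8, the neighbouring gene of Kcnj11 on chromosome 7, encodes a sulfonylurea receptor of ATP-sensitive channels. It was lower, with a difference of −0.63 (adjusted p = 0.0414 from limma). Kcnj8, the vascular pore, had a log2 ratio of −0.26, adjusted p = 0.345 from limma. Abcc9, the neighbour of Kcnj8 on chromosome 6, encodes the other sulfonylurea receptor and had −0.72 with an adjusted p of 0.129 from limma. All TAB samples of Abcc9 lay below all sham samples. Its mean level was 9.80 in TAB and 10.52 in sham, against 7.46 and 8.09 for Abcc8. Which receptor went with which pore was not tested. The Kcnj8 ratio was negative on days 3, 5 and 7 and positive on days 14 and 28.

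The K2P channels showed differences both ways. Kcnk2 encodes TREK-1, a leak channel opened by stretch. It stood at 7.79, 7.73, 7.74, 7.55 and 7.42 in TAB and 6.93, 7.07, 6.90, 6.61 and 6.81 in sham. The samples of each operation lay close together and the groups did not overlap, with a difference of 0.78 (SE 0.11, adjusted p = 0.0183 from limma), or 1.72-fold. Kcnk13 (THIK-1), known from microglia and other macrophages, was found on all TAB arrays and 2 sham arrays. It stood at 6.54, 6.52, 7.09, 6.02 and 5.57 in TAB and 4.05, 4.56, 5.06, 5.44 and 4.98 in sham, without overlap, and was higher by 1.53 (SE 0.33, adjusted p = 0.0373 from limma), or by 0.75 with 50 added. Kcnk18 (TRESK), known mainly from sensory neurons, went the other way, at 4.25, 4.16, 4.11, 3.73 and 5.06 in TAB and 5.35, 5.41, 5.62, 5.48 and 5.89 in sham. It was found on all sham arrays and 1 TAB array, the groups did not overlap, and the difference was −1.29 (SE 0.16, adjusted p = 0.0165 from limma), or −0.47 with 50 added. Kcnk1 and Kcnk3, leak channels of heart muscle, had log2 ratios of −0.60, adjusted p = 0.132 from limma, and −0.65, adjusted p = 0.0646 from limma. Kcnk6 was higher in TAB without overlap, from 8.06 to 8.28 against 7.89 to 8.03, yet its log2 ratio of 0.23, adjusted p = 0.191 from limma, did not pass. Kcnk9 had log2 ratios between −0.93 and −0.70 on the first 4 days and of 2.84 on day 28, where its sham sample stood at 5.75 against 8.67 to 9.15 on the other days. Its mean log2 ratio of −0.09, adjusted p = 0.937 from limma, rested on that sample. It was −0.82, and called, without day 28, and it turned to 0.0035 after median scaling alone.

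Calcium-activated channels open when calcium rises inside the cell. Kcnn2 encodes SK2, a small-conductance channel. It stood at 3.94, 3.66, 3.91, 4.52 and 5.33 in TAB, where it was found on 1 array, and at 5.17, 5.98, 5.69, 5.63 and 5.91 in sham, where it was found on all 5. The day 28 TAB sample overlapped the day 3 sham sample, and the difference was −1.40 (SE 0.26, adjusted p = 0.028 from limma). With 50 added it was −0.53. Kcnn4 encodes the intermediate-conductance channel of leukocytes and activated fibroblasts. It stood at 6.52, 6.69, 6.35, 5.32 and 5.25 in TAB and 5.17, 4.14, 3.83, 3.71 and 4.49 in sham, where it was found on 2 arrays. The groups did not overlap and the difference was 1.76 (SE 0.29, adjusted p = 0.0253 from limma), or 0.75 with 50 added, while a second Kcnn4 probe, found on 1 array, gave 0.45. Kcnma1, the BK channel, and its subunit Kcnmb4 had log2 ratios of −0.14, adjusted p = 0.538 from limma, and −0.33, adjusted p = 0.242 from limma. Kcnt2, a sodium-activated channel outside the current list, was found on all TAB and 2 sham arrays, at 5.52 to 5.68 in TAB and 3.97 to 5.34 in sham, and was higher by 0.83 (SE 0.20, adjusted p = 0.0461 from limma). The leukocyte and fibroblast sums given above were higher in every TAB sample than in any sham sample, and their part in the Kcnn4 and Kcnk13 differences was not tested.

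**Figure D4:**
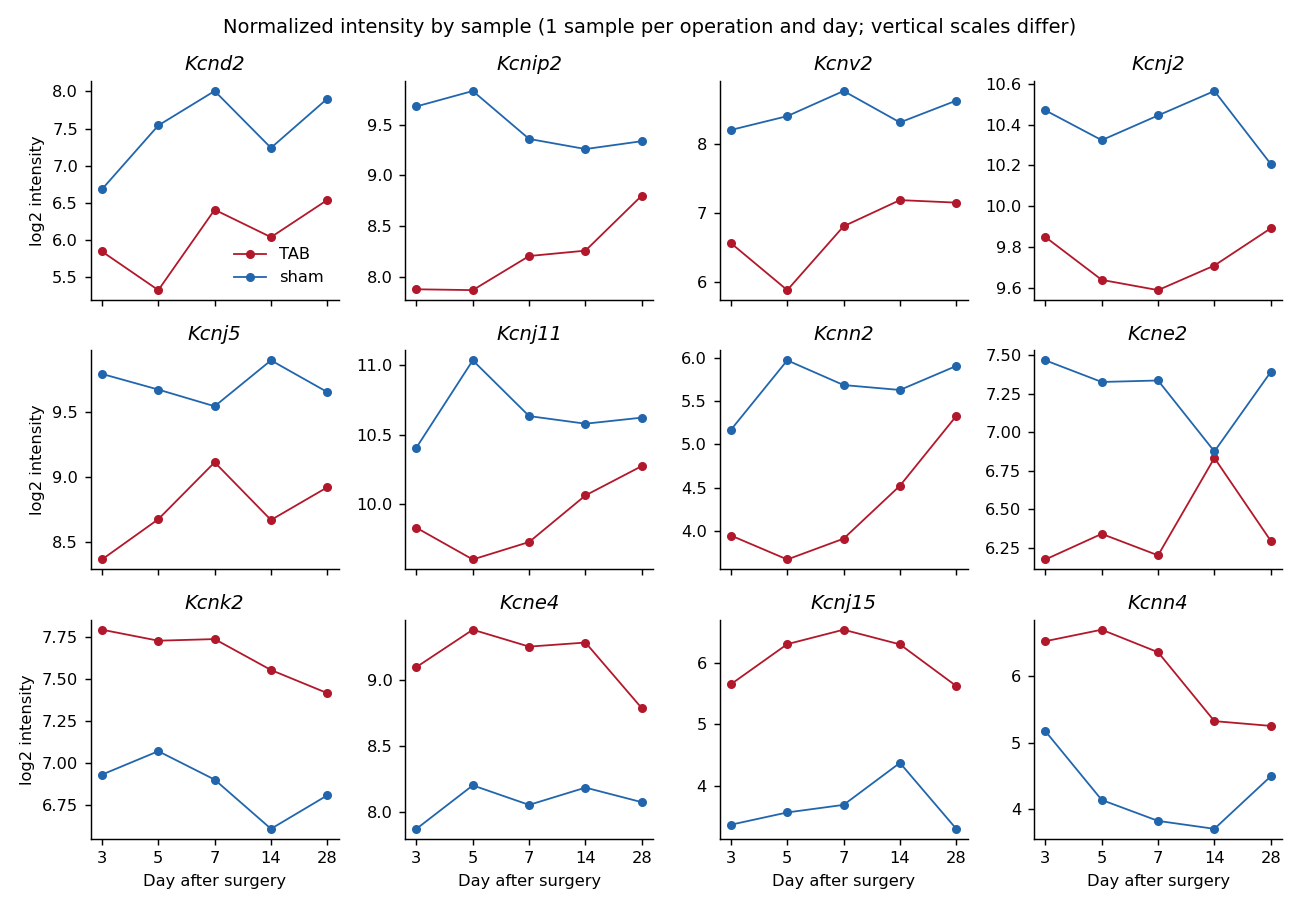
Normalized log2 intensity (vertical axes, scales differ) of 12 Kcn probes by day after surgery (horizontal axis, days, not to scale) in TAB and sham, 1 sample per point. TAB lay below sham on every day for Kcnd2, Kcnip2, Kcnv2, Kcnj2, Kcnj5, Kcnj11, Kcnn2 and Kcne2 and above it for Kcnk2, Kcne4, Kcnj15 and Kcnn4.

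Kcnj15, which encodes Kir4.2, an inward rectifier known from kidney and other epithelia, was higher in TAB. It was found on all 5 TAB arrays and on no sham array. Its log2 intensities were 5.65, 6.30, 6.54, 6.30 and 5.62 in TAB and 3.36, 3.56, 3.69, 4.37 and 3.30 in sham. All TAB samples lay above all sham samples, with an adjusted p of 0.00548 from limma. Under the same bound as for Kcnj14, which is no strict minimum, Kcnj15 was 5.28-fold higher in TAB. With 50 added before log2, its ratio was 0.92 in log2. Kcnj6 is its neighbour on chromosome 16 and was not called. Among beta subunits, Kcne4, which restrains KCNQ and some Kv channels, stood at 9.10, 9.38, 9.25, 9.28 and 8.78 in TAB and 7.87, 8.20, 8.05, 8.18 and 8.07 in sham. The groups did not overlap and differed by 1.08 (SE 0.12, adjusted p = 0.0148 from limma), or 2.11-fold, the opposite direction to Kcne2. Kcne3 was called with a positive ratio (adjusted p = 0.0352 from limma), but it was found on no array, so that no level or fold is given. Kcnab3, a Kv beta subunit, stood at 5.75 to 6.65 in TAB and 6.64 to 6.93 in sham and differed by −0.77 (SE 0.18, adjusted p = 0.0412 from limma), with the day 28 TAB sample just above the day 14 sham sample. Kcnab1 had a log2 ratio of −0.17, adjusted p = 0.324 from limma.

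Of the 20 Kcn probes found on some arrays but not on all 5 of either operation, Kcnj14 was called and 19 were not (5.00%, against 8.45% of all such probes), with a median log2 ratio of −0.22. These included Kcna3, Kcna6 and Kcna10 of the Kv1 family, Kcns2 and Kcns3 of the silent subunits, Kcnk12 and Kcnk16, and Kcnn1. Of the 16 tested probes found on no array, Kcne3 was called and 15 were not (6.25%, against 3.03% of all such probes), with a median of −0.04. The measured silent subunit Kcng2 had a log2 ratio of −0.19, adjusted p = 0.276 from limma, and Kcnq3, a subunit of the neuronal M-current, one of −0.11, adjusted p = 0.655 from limma.

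The third question was how the differences ran over time. For each day, probes were counted whose log2 ratio lay farther from 0 than 2 SDs of that day's ratios, that is beyond 1.75, 1.87, 1.71, 1.46 and 1.38 on days 3, 5, 7, 14 and 28. A single day has no replicate check. On day 3, 4 Kcn probes were up-regulated (4.94%, against 3.07% of all probes) and 5 down-regulated (6.17%, against 2.33%). On day 5 it was 5 up (6.17%, against 3.77%) and 6 down (7.41%, against 1.69%), and on day 7 it was 5 up (6.17%, against 3.71%) and 4 down (4.94%, against 1.77%). Day 14 had 5 up (6.17%, against 3.29%) and 5 down (6.17%, against 2.37%), and day 28 had 6 up (7.41%, against 3.36%) and 4 down (4.94%, against 2.55%). Kcnj15 passed on all 5 days, and Kcnv2, Kcnk13, Kcnn4 and Kcnj14 each passed on 3 days in 1 direction. Of these 9, 11, 9, 10 and 10 probes, only 1, 3, 1, 0 and 2 were found on all 10 arrays. Kcne1, found on no array, passed downward on day 3 and upward on day 5, and Kcnj14 and Kcnj15 were found on no sham array.

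The daily ratios of the called probes are given as a description. The median log2 ratio of the 15 lower probes was −0.97, −1.15, −1.14, −0.97 and −0.61 on the 5 days in order, and that of the 5 higher probes found in both operations 1.22, 1.18, 1.20, 0.94 and 0.71. The other 3, Kcne3, Kcnj14 and Kcnj15, had no sham level to set the TAB samples against. A direct test of days 14 and 28 against days 3, 5 and 7 called 0 of 81 Kcn probes and 0 of 19976 probes (0%), with a lowest adjusted p of 0.355 for Kcn probes from limma. At an unadjusted p under 0.05 it gave 15 Kcn probes (18.5%, against 10.4% of all probes). The later ratio was less negative for 11 of the 15 lower probes and smaller for 4 of these 5 higher ones. Kcnk13 had the lowest p of this test among the Kcn probes, with a mean log2 ratio of 2.16 on days 3 to 7 and 0.58 on days 14 and 28. Kcnip2 went from −1.64 to −0.77, Kcnn2 from −1.77 to −0.85 and Kcnab3 from −1.07 to −0.32. Kcnj3, in contrast, had −0.91 and −1.27, and Kcnk2 had 0.78 at both stages. On simulated data of the same size this stage test recovered 15% of probes with a log2 change of 2 and 39% of those with 3, with 1 false call. Smaller changes were not simulated.

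**Figure D5:**
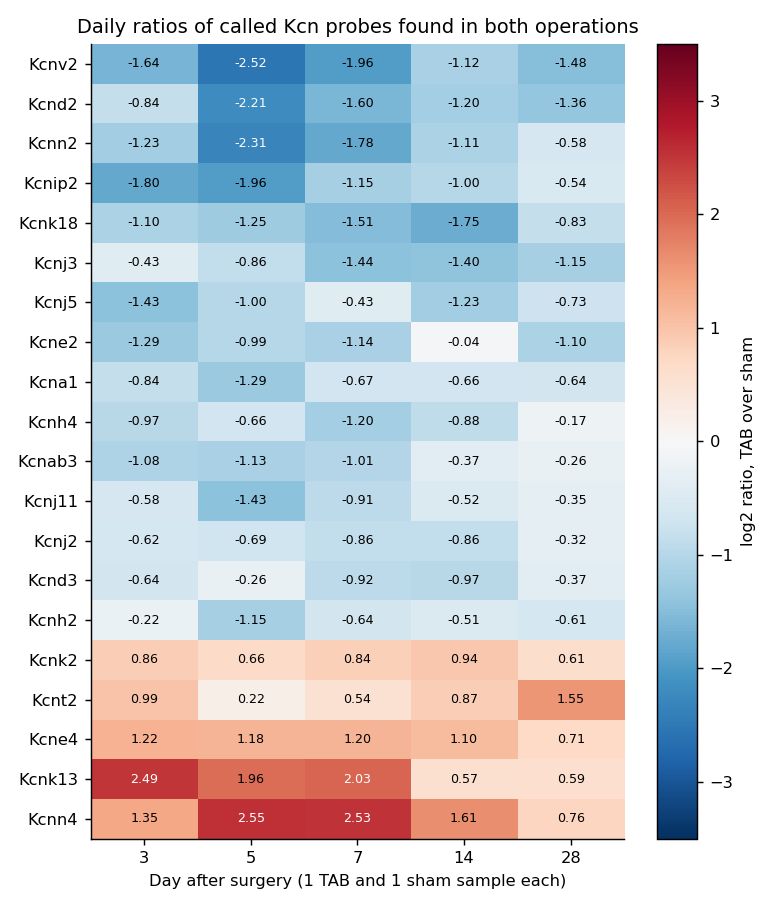
Log2 ratio of TAB over sham (colour and printed value) of the 20 called Kcn probes found on arrays of both operations (rows) on each day after surgery (columns), 1 TAB and 1 sham sample each. The 15 lower probes were negative and the 5 higher probes positive on all 5 days.

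All 41 genes of the list of cardiac potassium currents were on the array and 29 were measured. Of these 11 were lower (37.9%, against 8.44% of all measured probes), 3 higher (10.3%, against 9.29%) and 15 not called, with a median log2 ratio of −0.43. The set includes probes that were found throughout 1 operation only, such as Kcnn2 and Kcnn4. Among the 23 genes of the list whose probe was found on all 10 arrays, 10 were lower (43.5%, against 8.40% of all such probes) and 2 higher (8.70%, against 8.63%). The list was chosen with earlier results of these data known, so its shares are a description and no test of the list. A list of partners and regulators outside the Kcn symbols was read beside it. Of the BK gamma subunits, which shift the voltage range of BK channels, Lrrc38 was lower, with a difference of −0.43 (adjusted p = 0.0422 from limma) and the other 3 tested probes were not called. Of the transcription factors that act on Kcnd2 or Kcnip2, none of 4 passed. Klf15, which drives Kcnip2 rhythmically, had a log2 ratio of −1.23 with an adjusted p of 0.0574 from limma, and Irx5, a repressor of Kcnd2, one of −0.28 with 0.137. Of 10 tested probes for scaffolds and trafficking factors 2 were lower, against 6.73% of all probes. These were Dlg1, the SAP97 scaffold of Kir2 and Kv channels, at −0.45 (adjusted p = 0.0489 from limma), and 1 of the probes of Nedd4l, a ubiquitin ligase, at −1.19 (adjusted p = 0.0297 from limma) but found on only 1 TAB array. The other Nedd4l probe, found on all 10 arrays, had −0.25, adjusted p = 0.271 from limma. The Kv4 partner Dpp6 was found on no array, and Dpp10 was found on 1. Of the 6 tested probes of other pacing and depolarizing channels, the T-type calcium channels Cacna1h and Cacna1g were lower, with differences of −0.55 and −0.62.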

How the data were processed

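Total RNA of left ventricle was measured in 1 colour (Cy5) on the Mouse Whole Genome OneArray. The authors deposited intensity per probe and array with the background already subtracted by a method not given in the sources used here, and a flag per spot. The deposited flag of −50 was read as a spot not found, which is another kind of value than an intensity and has no stated definition. Columns of the authors' detection p-values were not used. Precision is limited by the number of arrays, and no Kcn spot was saturated.

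After scaling of the arrays to equal medians, 6447 of 26423 probes were removed because they fell below 1 on at least 1 array. Quantile normalization of the 10 samples used the rank medians, and values were put on a log2 scale. The study's methods can also be read as normalization within each operation, which was an alternative. Every probe was tested with limma 3.58.1 in R 4.3.3 (lmFit and eBayes), with a block for day, and p-values were adjusted by Benjamini-Hochberg at a threshold of 0.05. The block follows the study's ratios by day. The deviations of same-day samples from their group means correlated with r = 0.112, 0.00148, 0.0466, 0.0164 and 0.0163 on days 3, 5, 7, 14 and 28. On simulated data for 19976 probes, the TAB effect was recovered for 82% of probes with a log2 change of 2 and 90% with 3, with 6 false calls. Only 100 probes were changed by each size, with independent noise and no day effects. The 15 lower Kcn probes lay between −1.74 and −0.63, so these rates do not describe changes of their size. A fold against an operation in which a probe was found on no array was given as a bound, the mean of the brighter samples over, per array, the higher of the lowest found intensity and the probe's own. It is no strict minimum, because spots not found can be brighter than the lowest found one. The probes named are those of a list of cardiac potassium currents that were measured, called probes, probes found in 1 operation only, those past 2 SDs on at least 3 days and those with the largest stage difference. The remaining measured probes named were chosen after their values were seen. The members and all lists were chosen with earlier results of these data known. All 94 symbols were current in GRCm38.p6, and upstream sequences and neighbours are from RefSeq. Probes of one gene were kept apart. Alternatives were median scaling alone, normalization within each operation, 50 added before log2, no filter, only probes found on all 10 arrays, 1 probe per gene, no day block, trend and robust estimation, a fixed ratio threshold and each day left out. Python 3.11.15 with numpy 2.4.6, pandas 2.3.3 and matplotlib 3.10.9 was used. Probe and protein sequences and the miRNA arrays were not analysed here, and results of a few genes are not reported here.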

Additional observations from a re-analysis of the deposited data

Results flagged for a closer look

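In 62 groups of 5 samples, a sample was marked when its gap to the nearest other sample exceeded the share 0.71 of the group's range, which chance alone does in about 1 of 20 groups. It was so in 5 groups. The sham sample of day 28 stood low for Kcnk9 (5.75 against 8.67 to 9.15, share 0.859) and for Kcna7 (6.29 against 7.18 to 7.43, share 0.775). For Kcne2 both samples of day 14 stood apart, TAB above the others (6.83 against 6.17 to 6.34, share 0.748) and sham below them (6.87 against 7.33 to 7.47, share 0.762). The sham sample of day 3 stood high for Kcnh4 (8.05 against 7.72 to 7.80, share 0.780).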

How the results depend on the processing

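All 23 called Kcn probes that an alternative tested kept their direction in it. Leaving out a day could not change it, since their ratios had 1 sign on all 5 days. Against 15 lower and 8 higher probes, no filter on low values gave 2 lower and 3 higher (Kcnk18 and Kcnv2, and Kcne4, Kcnj15 and Kcnk2), and 1.40% of all probes called against 14.2%. Restriction to probes found on all 10 arrays gave 15 lower and 2 higher of the 32 tested, Kcnh7 and Kcnj6 being added to the 15 of the 23 tested there, and 34.6% of all probes called. With 50 added 24.5% of all probes were called, and 22 of the 23 Kcn probes with 3 others. Leaving out each day in turn gave 0 to 16 lower and 0 to 6 higher probes. Without the day block, that is without pairing the samples by replicate, 18 lower and 8 higher probes were called, 22 of them shared with the 23, and Kcnh2 was lost. Median scaling alone and normalization within each operation each gave 13 lower and 8 higher probes, and the remaining settings gave 14 to 18 lower and 7 or 8 higher. Probes without overlap that were higher in TAB numbered 3 instead of 8 among those found on all 10 arrays. Leaving out each day gave 12 to 22 lower ones, with 22 without day 28. With fewer samples any probe separates more easily, and the shares of all probes are not given here, so this rise is not read as a Kcn result. Probes past 2 SDs, 9, 11, 9, 10 and 10 on the 5 days, were 5, 5 and 6 on days 3, 5 and 28 with 50 added, and 5, 4, 4, 6 and 5 when only probes found on all 10 arrays were normalized, which lowered the 2-SD limits to between 0.94 and 1.43. At the unchanged limits 1, 3, 1, 0 and 2 of the probes found on all 10 arrays passed. At an absolute log2 ratio of at least 1 they were 27, 28, 22, 21 and 22, and the shares of all probes at this limit are not given here. The mean log2 ratio of Kcnj4 was −0.15 and lay between −0.28 and 0.018 with each day left out, above 0 without day 7. That of Kcnk9 was −0.09, turned to 0.0035 after median scaling, and lay between −0.82 and 0.12 with each day left out, below 0 and called only without day 28. The cause was not tested. The stage comparison called 0 Kcn probes in every setting run. Probes found on no array give ratios near background and no level.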
